A study of Mus musculus with 6 samples.

Results

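The 10 genes described here encode enzymes that make or recycle purine and pyrimidine nucleotides: Ppat, Gart, Paics, Adsl, Atic, Impdh1 and Impdh2 of purine synthesis, Cad and Umps of pyrimidine synthesis, and Upp1 of uridine recycling. They were chosen by gene symbol, without reference to a threshold on any measured value, and are 10 of the 22192 genes in the count table. All 10 passed the filter on low counts, which left 11686 genes to test. The cells were RAW 264.7, a macrophage-like mouse line derived from a BALB/c tumour induced by Abelson leukaemia virus. Polyadenylated RNA was sequenced from 3 libraries of cells kept for 24 h in medium with 200 µg/mL of ASPS-A1, a purified acidic polysaccharide from the leaves of Acanthopanax senticosus, and from 3 libraries labelled control. The titles of the polysaccharide libraries read ASPS-A1, A2 and A3, while their treatment label is ASPS-A1 throughout, and that label was followed. The labels do not say what the control cells received, nor whether the libraries of a group came from separate cultures, so the p-values measure only the spread between these libraries.

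Cells build purines on a ribose phosphate scaffold until inosine monophosphate is formed, which is then turned into adenine or guanine nucleotides. Pyrimidines are built as a ring first and joined to the ribose phosphate afterwards. In both routes an early enzyme sets the pace: Ppat commits phosphoribosyl pyrophosphate to purines, and the carbamoyl phosphate synthetase part of the Cad protein starts pyrimidines. Salvage enzymes recover free bases and nucleosides. Activated macrophages are known to rewire this metabolism along with glycolysis and one-carbon metabolism, and uridine phosphorylase is known as an inflammation-inducible enzyme.

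The promoter sequence shown here is that of Upp1, the gene with the widest difference among the 10. It covers 150 bases before the first RefSeq start of Upp1 (GRCm38.p6, chr11:9117858-9118007, plus strand), with a TGAGTCA motif, the AP-1 site, in capitals.
Upp1: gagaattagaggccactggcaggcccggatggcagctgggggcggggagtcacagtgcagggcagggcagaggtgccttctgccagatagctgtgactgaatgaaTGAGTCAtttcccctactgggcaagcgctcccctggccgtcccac
The motif begins 45 bases before that start. TGAGTCA or its reverse complement TGACTCA occurs in 5.2% of 32851 RefSeq promoter windows (250 bases before to 50 after a start). Among the 13 windows of the 10 genes it is present in 2, which are overlapping windows of Upp1.
The E-box CACGTG, the site that MYC family proteins bind, occurs in 7.15% of all windows and in the windows of Impdh2, Atic and Paics. It is shown in capitals within 30 bases of each, on the plus strand of chr9:108560314-108560343 for Impdh2, chr1:71557137-71557166 for Atic and chr5:76951087-76951116 for Paics. In GENCODE M21 the Impdh2 and Atic stretches overlap exons of their own genes, and the Paics stretch overlaps an exon of Ppat. The Upp1 stretch overlaps none.
Impdh2: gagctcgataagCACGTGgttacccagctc
Atic: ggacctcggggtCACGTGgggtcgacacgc
Paics: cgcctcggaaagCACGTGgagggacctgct
Neither TGATGCAA (a C/EBP-ATF site, with its reverse complement TTGCATCA, in 0.895% of all windows) nor the palindromic NRF1 site (in 0.971%) was found in the windows of the 10 genes. These matches describe letters in a window, and no binding was measured. No source used here gives the build or annotation behind the counts, so the coordinates are those of RefSeq only.

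Library totals were 19989318 to 22179544 counts with ASPS-A1 and 23113454 to 26137127 counts in control. Of the 11686 genes tested, 65.3% had an adjusted p under 0.05 (quasi-likelihood test of edgeR, Benjamini-Hochberg over all genes tested), 32.4% higher and 33.0% lower with ASPS-A1. By number 3783 genes were higher and 3852 lower, or 2529 higher and 5454 lower with scaling by library totals alone, which moved the median log2 fold change by -0.20. Across all genes tested, the groups did not overlap for 68.5%. All 10 macrophage markers were detected, with a summed level of 3036 to 3076 CPM with ASPS-A1 and 2399 to 2478 CPM in control. These sums were scaled by library totals alone. Mertk, the least abundant of these markers, had only 23, 8 and 8 counts in the ASPS-A1 libraries and 23, 14 and 19 counts in control. Of 16 markers of other cell types, 15 stayed below 15 counts in every library and 6 were at 0 in all libraries. The exception was Pecam1, an adhesion molecule that macrophages can also express. Scaled with TMM factors, it had 13.1 ± 0.573 CPM with ASPS-A1 and 7.49 ± 0.713 CPM in control (SD, n = 3 each).

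The comparison asks how transcripts of these enzymes differ with the polysaccharide from those in control cells. Upp1, Adsl, Impdh2 and Atic rose, Ppat and Cad fell, and Gart, Paics, Impdh1 and Umps did not pass the threshold. Upp1 was 5.80-fold higher, Adsl 1.59-fold, Impdh2 1.29-fold and Atic 1.19-fold, while Ppat was 1.25-fold and Cad 1.20-fold lower. With library totals alone 3 rose and 5 fell, and with offsets for the length and GC content of transcripts 6 rose and 1 fell. The 6 called of 10 sit near the background of 65.3%, so the share of enzymes called does not set them apart from other genes. The median log2 fold change of the 10 was 0.078, against -0.021 over all genes tested. In these bulk libraries, fewer cells with a transcript and less of it per cell cannot be told apart.

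**Figure D1:**
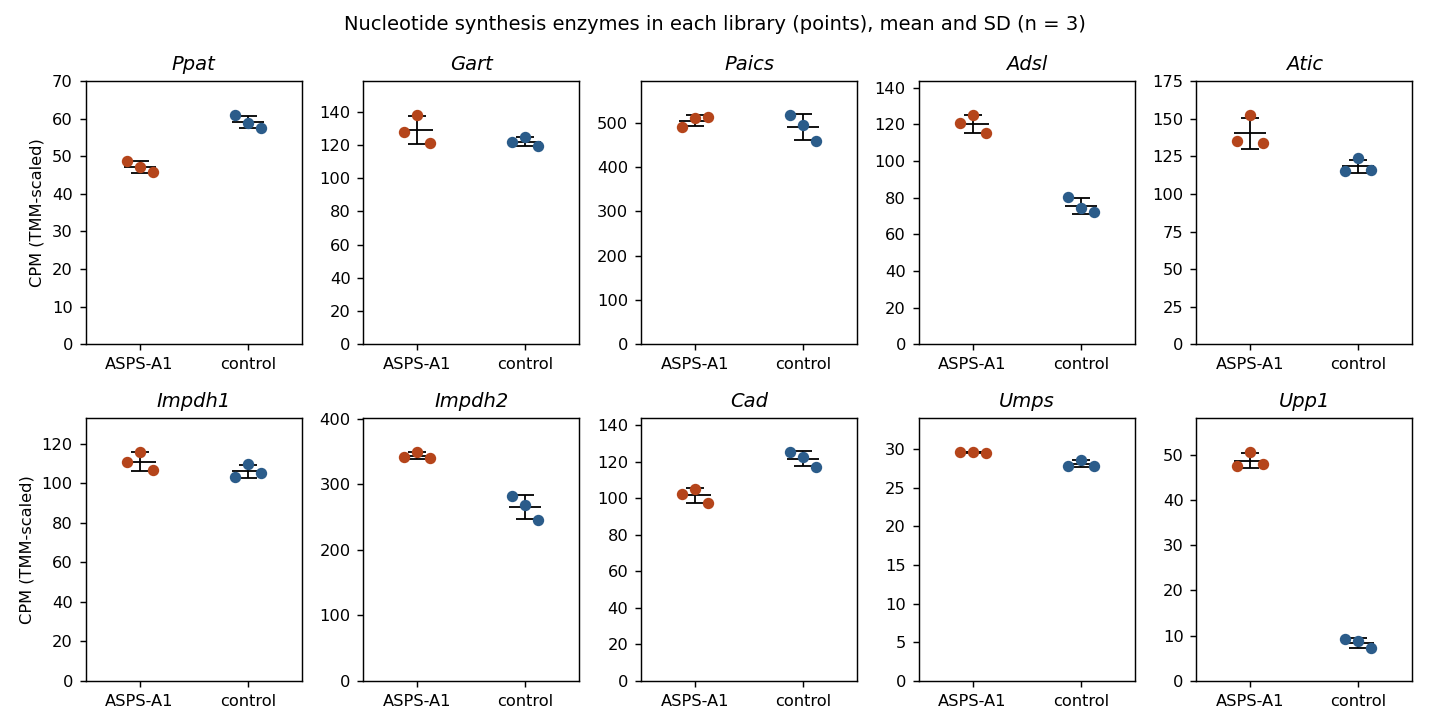
Normalised read counts of the 10 enzymes (y axis, counts per 1000000 scaled with TMM factors, from 0) in each ASPS-A1 and control library (points), with the mean and SD of each group as black bars (n = 3 each). Upp1 sits between 47.5 and 50.5 CPM with ASPS-A1 and between 7.16 and 9.32 CPM in control, Ppat and Cad are lower with ASPS-A1 without overlap, and Gart, Paics and Impdh1 overlap between the groups.

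Purine synthesis opens with Ppat, the amidotransferase that commits phosphoribosyl pyrophosphate to the pathway. Its normalised read counts (CPM, counts per 1000000 with TMM-scaled library sizes) were 48.8, 47.1 and 45.8 in the ASPS-A1 libraries and 60.9, 59.0 and 57.5 in the control libraries. Every ASPS-A1 library lay below every control library. The log2 fold change was -0.32 ± 0.065 (SE; 95% interval -0.45 to -0.19, edgeR adjusted p = 2.29e-05), at percentile 29.2 of all genes tested. With scaling by library totals alone it was -0.52, and with the length and GC offsets -0.23 (edgeR adjusted p = 0.000823). Ppat and Paics lie head to head on chromosome 5 in opposite directions and overlap at their starts, where 6.83% of the Ppat exon length and 10.9% of the Paics exon length is shared. Whether counting used strand is not stated, so reads from that stretch cannot be assigned to either gene with certainty.

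Gart and Paics carry out the middle steps. Gart, a multifunctional enzyme that adds glycine and a formyl group and closes the first ring, had 128, 138 and 121 CPM with ASPS-A1 and 122, 125 and 120 CPM in control. The groups overlapped, and the log2 fold change of Gart was 0.080 (95% interval -0.025 to 0.19, edgeR adjusted p = 0.178). Gart turned to -0.12 (adjusted p = 0.0460) with scaling by library totals alone, and to 0.20 (adjusted p = 0.000193) with the length and GC offsets. It shares 16.95% of its exon length with Gm15964. Paics, which carboxylates the ring and attaches aspartate, was the most abundant of the 10, at 492, 510 and 514 CPM with ASPS-A1 and 517, 496 and 460 CPM in control. The highest and the lowest Paics values both came from control libraries. Its log2 fold change was 0.042 (95% interval -0.056 to 0.14, edgeR adjusted p = 0.459), and -0.15 (adjusted p = 0.00314) with library totals alone.

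Adsl and Atic finish inosine monophosphate. Adsl, the lyase that releases fumarate in both the common pathway and the branch to AMP, had 121, 125 and 115 CPM with ASPS-A1 and 80.1, 74.2 and 72.1 CPM in control. The lowest ASPS-A1 library stood well above the highest control library. The log2 fold change of Adsl was 0.67 ± 0.056 (SE; 95% interval 0.56 to 0.78, edgeR adjusted p = 1.30e-14), at percentile 89.3 of all genes tested. Adsl shares no exon sequence with another gene. Atic, which adds the last formyl group and closes the second ring, had 135, 152 and 134 CPM with ASPS-A1 and 116, 124 and 116 CPM in control. Its groups did not overlap, though the gap was narrow beside the spread of the ASPS-A1 libraries. For Atic the log2 fold change was 0.25 ± 0.053 (SE, edgeR adjusted p = 7.99e-05), and the call ended with scaling by library totals alone (0.051, adjusted p = 0.392).

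The branch to guanine nucleotides starts with IMP dehydrogenase, which is encoded by a pair of genes. Impdh2, the isozyme known to rise in proliferating cells, had 342, 349 and 340 CPM with ASPS-A1 and 283, 268 and 246 CPM in control. The ASPS-A1 libraries lay close together and above all control libraries. The log2 fold change of Impdh2 was 0.37 ± 0.049 (SE; 95% interval 0.27 to 0.47, edgeR adjusted p = 5.15e-09). It kept the call at 0.18 with library totals alone (adjusted p = 0.00122) and at 0.19 with the length and GC offsets (adjusted p = 6.96e-05). Impdh1, the other isozyme, had 111, 116 and 107 CPM with ASPS-A1 and 103, 110 and 105 CPM in control, and these ranges overlapped. Its log2 fold change was 0.066 (95% interval -0.041 to 0.17, edgeR adjusted p = 0.276), and -0.13 (adjusted p = 0.0277) with library totals alone.

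A ratio within a library does not depend on library scaling. The counts of Impdh2 over those of Impdh1 gave 3.09, 3.01 and 3.19 with ASPS-A1 and 2.74, 2.44 and 2.34 in control. The groups did not overlap, with means of 3.10 ± 0.0860 with ASPS-A1 and 2.51 ± 0.209 in control (SD, n = 3 each). The difference in log2 ratio was 0.31, with an exact permutation p of 0.1 (two-sided), the smallest that 3 libraries against 3 can give. It was 0.098 with the length and GC offsets (exact permutation p = 0.4). How reads that match both isozymes were counted is not stated, which leaves the split between them uncertain.

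**Figure D2:**
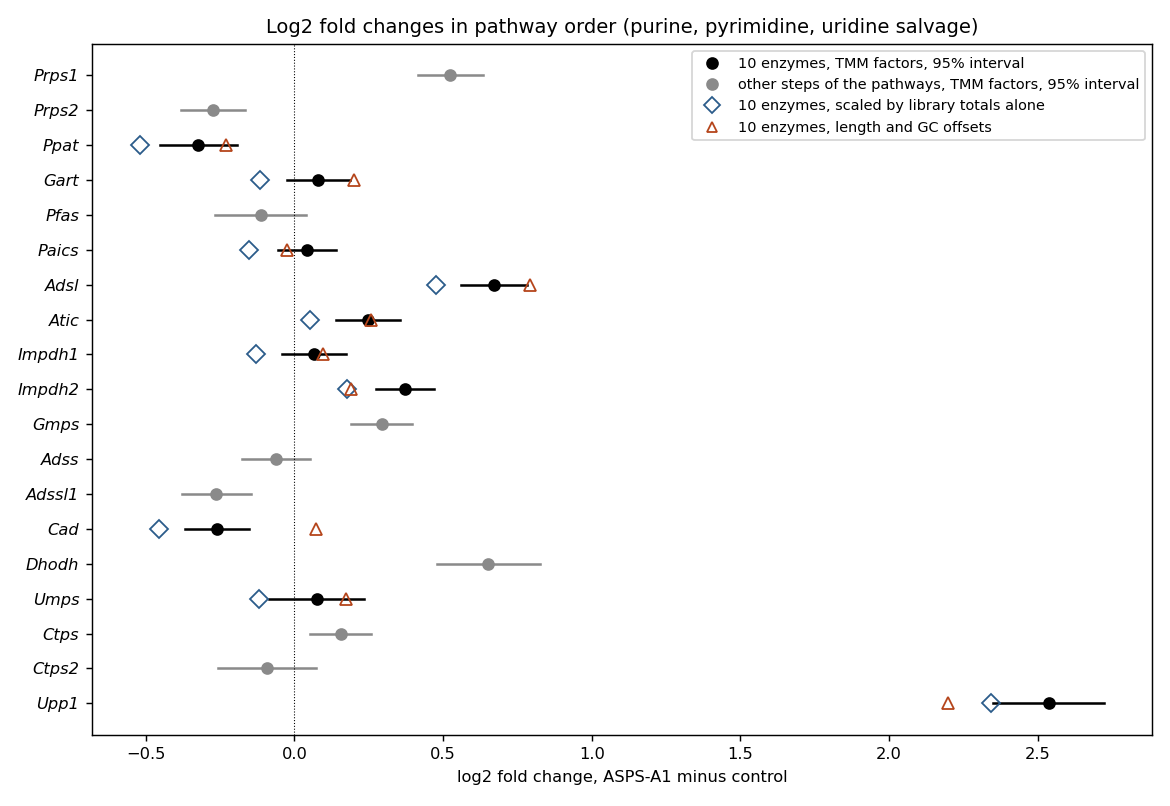
Log2 fold changes (x axis, ASPS-A1 minus control) in pathway order from top to bottom, with 95% intervals as bars: the 10 enzymes in black and other steps of the same pathways in grey. Diamonds give the 10 enzymes scaled by library totals alone and triangles give them with length and GC offsets. Upp1 stands apart near 2.54, and Cad lies at -0.26 but at 0.072 with the offsets.

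Pyrimidine synthesis is carried by Cad, Dhodh and Umps. Cad, a single large protein that performs the opening reactions, had 102, 105 and 97.3 CPM with ASPS-A1 and 125, 123 and 117 CPM in control. All ASPS-A1 libraries were below all control libraries. The log2 fold change of Cad was -0.26 ± 0.053 (SE; 95% interval -0.37 to -0.15, edgeR adjusted p = 3.05e-05), and -0.46 with library totals alone. Cad has the longest transcript of the 10 (7137 nt), in the tenth of tested genes with the longest transcripts, whose median log2 fold change was -0.27. With the length and GC offsets the value of Cad was 0.072 (adjusted p = 0.190), so the call ended and the direction turned.

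Umps, which attaches the ring to ribose phosphate and forms uridine monophosphate, was among the least abundant, at 29.6, 29.6 and 29.6 CPM with ASPS-A1 and 27.9, 28.6 and 27.8 CPM in control. The groups did not overlap, yet the test did not call Umps (log2 fold change 0.075, 95% interval -0.084 to 0.23, edgeR adjusted p = 0.415). With the length and GC offsets its value was 0.17 (adjusted p = 0.0470), and with library totals alone -0.12 (adjusted p = 0.175). Umps shares 6.11% of its exon length with Gm15829.

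Upp1 does not build nucleotides from small precursors but splits uridine into uracil and ribose phosphate, a reversible step of salvage and breakdown. It had 47.5, 50.5 and 47.8 CPM with ASPS-A1 and 9.32, 8.71 and 7.16 CPM in control. These rest on 903 to 995 counts with ASPS-A1 and 202 to 231 counts in control. The lowest ASPS-A1 library was far above the highest control library. For Upp1 the log2 fold change was 2.54 ± 0.093 (SE; 95% interval 2.35 to 2.72, edgeR adjusted p = 2.13e-27), at percentile 99.6 of all genes tested. At 1277 nt its transcript falls in the tenth of tested genes with the shortest transcripts, whose median log2 fold change was 0.48, and with the length and GC offsets Upp1 stood at 2.20. The AP-1 motif shown in its promoter sequence was present in no window of the other members, though only 5.2% of all windows hold it. Its part in the difference was not tested. Upp2, the second uridine phosphorylase, did not pass the filter, with 6, 5 and 8 counts in the ASPS-A1 libraries and 12, 1 and 18 counts in the control libraries.

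The coefficient of variation ran from 0.106% for Umps to 7.31% for Atic in ASPS-A1 libraries, and from 1.61% for Umps to 13.2% for Upp1 in control libraries. The Umps value with ASPS-A1 rests on 620, 545 and 558 counts, too few to read so small a spread as a precise level. Levels between genes were set side by side per kb of the longest basic transcript of the reference, since longer transcripts give more reads. Paics led in both groups, at 204 ± 4.83 CPM per kb with ASPS-A1 and 198 ± 11.6 CPM per kb in control (SD, n = 3 each), followed by Impdh2 at 185 ± 2.66 CPM per kb with ASPS-A1 and 143 ± 9.88 CPM per kb in control. Atic and Impdh1 came next, and in control their libraries overlapped. Upp1 was the fifth in level with ASPS-A1, at 38.1 ± 1.31 CPM per kb, overlapping Gart, and the last of the 10 in control, at 6.58 ± 0.871 CPM per kb. Adsl followed Gart in both groups. Cad, Ppat and Umps formed the low end with ASPS-A1, at 14.2, 11.9 and 8.49 CPM per kb, with no overlap between neighbours.

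**Figure D3:**
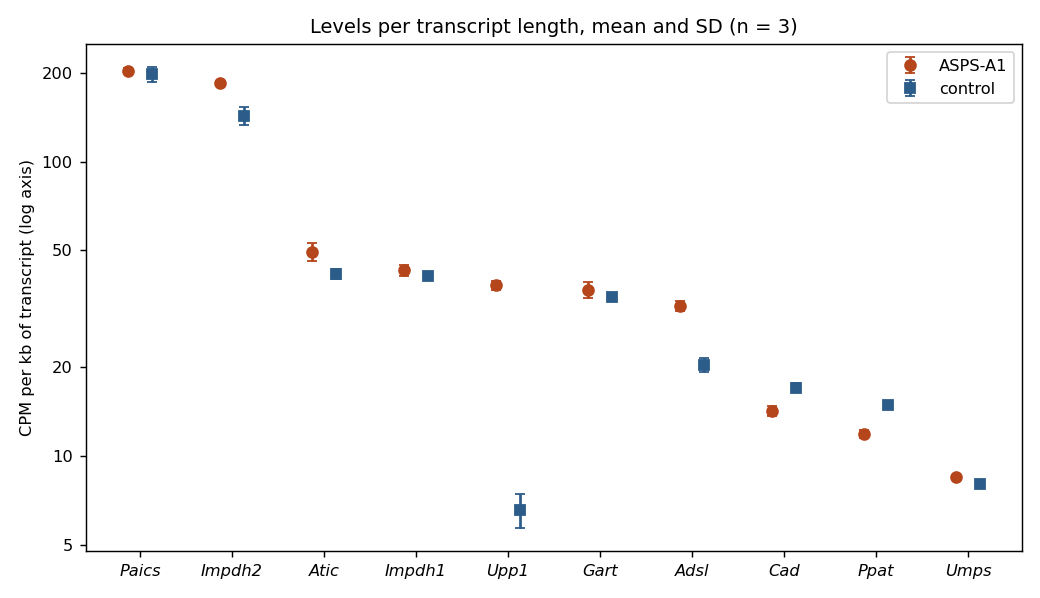
Level per transcript length (y axis, CPM per kb, log axis) of the 10 enzymes in ASPS-A1 (circles) and control libraries (squares), mean and SD over 3 libraries each. Paics and Impdh2 are the most abundant in both groups, and Upp1 stands at 38.1 with ASPS-A1 and 6.58 in control.

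Of 24 further genes of purine synthesis and interconversion, 23 were tested, of which 12 rose, 5 fell and 6 did not pass the threshold (median log2 fold change 0.29; 10 rose and 8 fell with library totals alone). The share called was 73.9%, beside 65.3% of all genes tested, where calls were split almost evenly (32.4% higher and 33.0% lower). The counts of this and the following lists are descriptions, and no test set a list apart from other genes. The supply of phosphoribosyl pyrophosphate rests on a pair of synthetases that moved in opposite directions. Prps1 had 133 ± 4.63 CPM with ASPS-A1 and 92.7 ± 5.50 CPM in control (log2 fold change 0.52, edgeR adjusted p = 8.66e-12). Prps2 had 102, 101 and 113 CPM with ASPS-A1 and 124, 128 and 130 CPM in control (log2 fold change -0.27, edgeR adjusted p = 1.77e-05). Both calls held with library totals alone and with the length and GC offsets.

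Pfas, the step between the reactions of Gart, had a log2 fold change of -0.11 (edgeR adjusted p = 0.186), with -0.31 under library totals alone and 0.18 under the length and GC offsets, each past the threshold. Gmps, which completes guanosine monophosphate after Impdh1 and Impdh2, rose (0.29, edgeR adjusted p = 2.10e-06), a call that ended with library totals alone (0.098, adjusted p = 0.0873). In the branch to AMP, Adssl1, named as the muscle-type adenylosuccinate synthetase, fell (-0.26, edgeR adjusted p = 8.67e-05), and the widely expressed Adss had -0.062 (adjusted p = 0.346), with -0.26 under library totals alone and -0.13 under the length and GC offsets, each past the threshold. The remaining falls were in the AMP deaminases Ampd3 and Ampd2 (-1.99 and -0.36, the second with 11.3% of its exon length shared with Gm12500) and the mitochondrial adenylate kinase Ak4 (-0.77). Ampd3 had 2.38 ± 0.189 CPM with ASPS-A1 and 9.46 ± 1.18 CPM in control. Among the rises, the nucleoside diphosphate kinase family member Nme6 had the widest (1.32).

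Of 5 further pyrimidine genes, 4 were tested, of which 3 rose and 0 fell (2 rose and 1 fell with library totals alone). That is 75.0% called, beside 65.3% of all genes tested. Dhodh, the mitochondrial enzyme between Cad and Umps, had 31.5 ± 2.49 CPM with ASPS-A1 and 20.0 ± 1.09 CPM in control (log2 fold change 0.65, edgeR adjusted p = 6.08e-09). The CTP synthase gene Ctps rose by 0.16 on the log2 scale (edgeR adjusted p = 0.00653), and had -0.039 (adjusted p = 0.493) with library totals alone. The call on Ctps also ended with upper-quartile factors (0.10, adjusted p = 0.0613) and without control replicate 3 (0.12, adjusted p = 0.0543). The kinase Cmpk1 rose (0.31), and Ctps2 had -0.091 (adjusted p = 0.335).

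**Figure D4:**
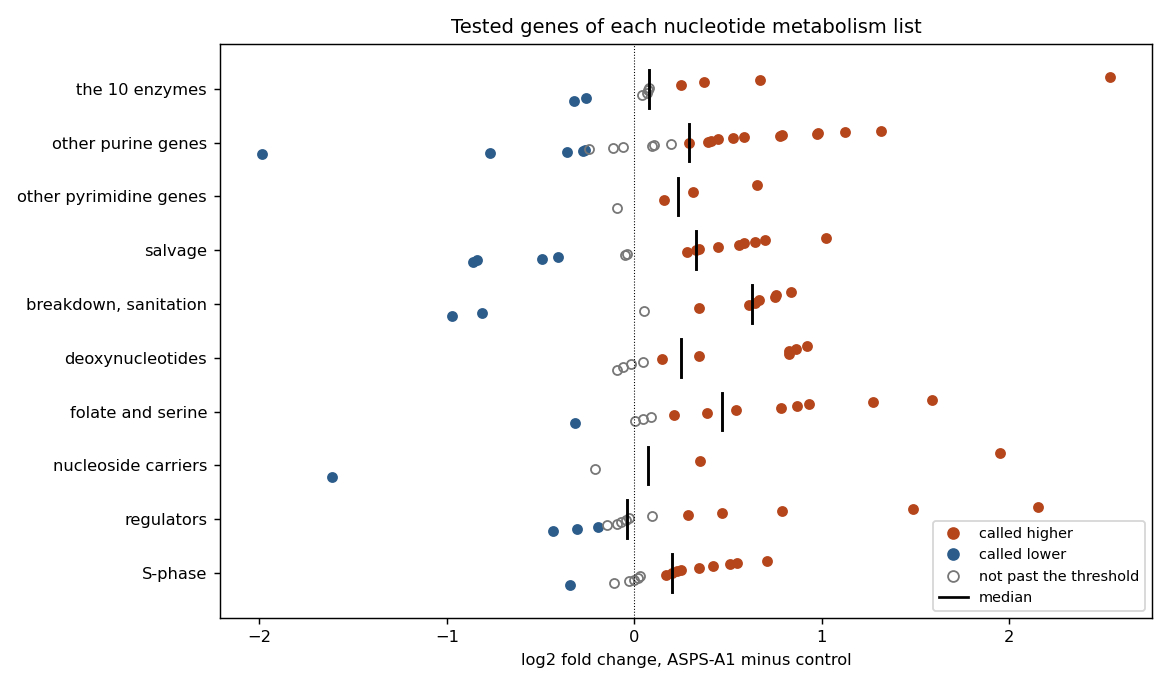
Log2 fold changes (x axis, ASPS-A1 minus control) of every tested gene in each list (rows), filled where the gene passed the threshold and open where it did not, with the list median as a black line. The 10 enzymes have a median of 0.078, the folate and serine genes 0.47, and the breakdown and sanitation genes 0.63.

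Of 15 tested salvage genes 9 rose and 4 fell (86.7% called, beside 65.3% of all genes tested). However, 6 rose and 6 fell with library totals alone and likewise with the length and GC offsets. Aprt, which recovers adenine, rose to 314 ± 16.7 CPM with ASPS-A1, against 155 ± 7.80 CPM in control (log2 fold change 1.02). Mtap (0.69), which releases adenine from methylthioadenosine, and the thymidine kinase Tk1 (0.64) also rose. With the length and GC offsets the values were 0.61 for Aprt, 0.66 for Mtap and 0.38 for Tk1. The mitochondrial thymidine kinase Tk2 (-0.86), the deoxycytidine kinase Dck (-0.84), the adenosine deaminase Ada (-0.49) and Uprt (-0.41) fell. Hprt, which recovers hypoxanthine and guanine, had 0.45, and 0.036 (adjusted p = 0.456) with the offsets. Of 10 tested genes of nucleotide breakdown and sanitation, 7 rose and 2 fell (6 rose and 2 fell with library totals alone). In this list 90.0% were called, beside the same 65.3%, and no test compared them. Itpa, which removes inosine triphosphate, rose (0.83), as did the nucleotidases Nt5c3b (0.76) and Nt5m (0.75), while the guanine deaminase Gda (-0.97) fell. With the length and GC offsets the values were 0.52 for Itpa, 0.55 for Nt5c3b, 0.46 for Nt5m and -0.78 for Gda.

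Among the carriers, Slc28a2, which takes up purine nucleosides and uridine with sodium, had 8.82 ± 0.214 CPM with ASPS-A1 and 2.27 ± 0.255 CPM in control (log2 fold change 1.95, edgeR adjusted p = 2.89e-13). Slc29a3, the lysosomal nucleoside carrier, had 9.59 ± 0.655 CPM with ASPS-A1 and 29.4 ± 2.72 CPM in control (log2 fold change -1.61, edgeR adjusted p = 1.13e-18). Slc29a1, the equilibrative carrier of the cell surface, rose by 0.35 on the log2 scale. In all, 2 of 4 tested carriers rose and 1 fell (75.0% called, beside 65.3% of all genes tested).

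Purine rings take carbon from glycine and formyl-folate, so the serine and folate enzymes were counted as well. Of 12 tested, 8 rose and 1 fell (median log2 fold change 0.47; 7 rose and 2 fell with library totals alone). The share called was 75.0%, beside 65.3% of all genes tested, and no test compared them. Mthfd2, the mitochondrial folate dehydrogenase, had 294 ± 4.00 CPM with ASPS-A1 and 122 ± 9.99 CPM in control. Psph (1.59, with 26.1% of its exon length shared with Cct6a) and Phgdh (0.93), enzymes of serine synthesis, rose, and the cytosolic Shmt1 fell (-0.32). Of 10 tested genes that make or police deoxynucleotides, 6 rose and 0 fell (5 rose and 3 fell with library totals alone). Here 60.0% were called, near the 65.3% of all genes tested. Tyms (0.92), Dctpp1 (0.86) and Dtymk (0.83), all of thymidylate or deoxycytidylate handling, had the widest rises. With the length and GC offsets the values were 0.97 for Tyms, 0.40 for Dctpp1 and 0.40 for Dtymk.

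Genes known to regulate nucleotide synthesis were mixed, with 5 of 14 tested risen and 3 fallen. That is 57.1% called, below the 65.3% of all genes tested. With library totals alone 4 rose and 8 fell, and with the length and GC offsets 8 rose and 1 fell. Myc had 26.1 ± 3.90 CPM with ASPS-A1 and 5.88 ± 0.571 CPM in control (log2 fold change 2.16, edgeR adjusted p = 1.23e-20). Its paralog Mycn, at 233 CPM per kb with ASPS-A1 where Myc had 11.2 CPM per kb, fell, with 624 ± 32.8 CPM with ASPS-A1 and 713 ± 15.4 CPM in control (log2 fold change -0.19, edgeR adjusted p = 0.000470). Atf4, the factor that drives serine and folate genes under amino acid stress, had 558 ± 7.52 CPM with ASPS-A1 and 199 ± 26.1 CPM in control (log2 fold change 1.49). Mlx (0.79, with 19.4% of its exon length shared with Psmc3ip), Nrf1 (0.47) and E2f1 (0.29) rose. The E2f1 groups overlapped, and its call ended with library totals alone (0.093, adjusted p = 0.427) and without ASPS-A1 replicate 3 (0.19, adjusted p = 0.116). Mycn, Mlxip (-0.31) and the mTORC1 subunit Rptor (-0.44) fell, and the calls on Mlxip and Rptor ended with the length and GC offsets (-0.010 and -0.11).

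S-phase genes were counted because DNA replication uses nucleotides. Of 15 tested, 9 rose and 1 fell, or 4 rose and 6 fell with library totals alone. The 66.7% called lies near the 65.3% of all genes tested, so the count does not set S-phase genes apart. Pcna, the replication clamp, rose (0.71), as did Ccne1 (0.51) and Gins2 (0.55, with 70.7% of its exon length shared with Gse1), while the later cyclin Ccna2 fell (-0.34, with 10.4% of its exon length shared with Exosc9). Of the 10 macrophage markers 7 rose, 0 fell and 3 did not pass the threshold. The 70.0% called is also near the 65.3% of all genes tested. These markers were not counted again with library totals alone, so their counts hold for TMM factors only. Among the risen markers were Fcgr1 (1.06), Itgam (0.82, with 70.0% of its exon length shared with Gm49368) and Cd14 (0.79). The part of S-phase genes and markers in the values of the 10 enzymes was not tested.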

How the data were processed

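Per the submitters' processing notes, HTSeq (0.9.1), HISAT2 (2.1.0), DESeq (1.38.3) and fastp (0.22.0) were among the tools of the authors. The deposited table holds raw counts per gene symbol, 1 column per library; no source used here gives the build, annotation, strand setting or treatment of multi-mapped reads. Columns were matched to titles and grouped by the treatment label. Genes were filtered with filterByExpr (minimum count 10, total 15) and scaled with TMM. They were tested with glmQLFTest of edgeR 4.0.16 in R 4.3.3 (robust, two-sided, threshold 0.05). The procedure was also run on simulated counts, with few genes changed or with a length trend alone. That setting differs from these data, where most tested genes were called, so it does not vouch for the scaling here. The log2 fold change is that of ASPS-A1 over control, and its SE is its size over the square root of F. Transcript lengths, GC content and shared exons came from GENCODE M21 and covered 95.8% of tested genes. Alternatives were other scalings, DESeq2 1.42.0, limma-voom (limma 3.58.1), other filters, a replicate block, omitted libraries, thinning and length and GC offsets (lowess span 0.3).

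The members and lists were chosen with earlier results of these data known. Outside the 10 members, the named genes are the other steps of de novo synthesis, Myc, Atf4 and up to 3 called genes per list and direction, of which 1 is not reported here. Ampd2, Ampd3, Ak4, Nme6, Cmpk1, Uprt, Hprt, Nrf1, E2f1, Upp2, Pecam1, Mertk, Xdh, Dpyd and Gldc were chosen after their values were seen. No library was a copy of another, with a chi-square per degree of freedom of 4.21 to 6.80 between libraries of 1 group. Intervals cover the spread between libraries, and Upp1 in control had the lowest counts of the 10 enzymes (202 to 231).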

Additional observations from a re-analysis of the deposited data

How the results depend on the processing

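Of 160 log2 fold changes of the 10 enzymes under 16 alternatives each, 149 kept their direction and side of the threshold; Ppat, Adsl, Impdh2 and Upp1 did so in all 16. Library totals alone shifted the median of all genes by -0.20. Gart was then -0.12, Paics -0.15, Impdh1 -0.13, Umps -0.12 and Ctps -0.039, Atic lost its call (0.051), and 5 of the 10 enzymes fell. The falls counted were 8 in other purine, 1 in other pyrimidine, 3 in deoxynucleotide, 2 in folate and serine, 8 in regulator and 6 in S-phase genes (4 S-phase genes rose). With the length and GC offsets Gart (0.20) and Umps (0.17) gained a call, Paics (-0.024) and Cad (0.072) reversed, Pfas reversed to 0.18, and 1 of the 10 enzymes fell; 1 deoxynucleotide gene and 2 folate and serine genes fell, and 8 regulators rose and 1 fell. With upper-quartile factors Paics was -0.0099 and 1 deoxynucleotide gene fell. S-phase falls were 2 with upper-quartile factors, with no filter and with the 1 CPM filter, and 1 to 2 with 1 library left out. Without single libraries Paics ran from -0.0065 (without control replicate 3) to 0.077. The cause of these shifts was not tested. Of 848 values of 53 other named genes, 834 kept direction and side, 8 lost and 4 gained a call, and 2 reversed. Libraries of the same number did not deviate together (correlations -0.0071, 0.0050 and 0.0076), and 0 of 3 ASPS-A1 libraries correlated best with the control of their number; with the replicate block 3746 genes were higher and 3807 lower, and the calls on the 10 enzymes were the same (Ppat -0.32, Cad -0.26).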

Other observations

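Several enzymes of nucleotide breakdown lay below the filter on low counts and were not tested. Xdh, which oxidises hypoxanthine to urate, had 0, 1 and 0 counts in the ASPS-A1 libraries and 7, 9 and 5 counts in the control libraries. Dpyd, the first enzyme of uracil breakdown, had 0 counts in all 6 libraries. The glycine cleavage enzyme Gldc had 0, 0 and 2 counts with ASPS-A1 and 0 counts in the 3 control libraries.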
